A study of Mus musculus with 15 samples.

Results

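The constitutive proteasome subunit genes were examined in sorted mouse thymocytes, as the 36 genes whose platform symbol names a Psma, Psmb, Psmc or Psmd subunit, without the immunoproteasome genes Psmb8, Psmb9 and Psmb10. They were 36 of 18193 genes measured, on 74 probe sets that each name 1 gene, and each gene was read from its probe set of highest mean over the 15 arrays. All values below are log2(signal + 16), so a difference of 1 is 2-fold. Of the 36 genes, 34 were above the array median in at least 3 arrays and were tested. Psma8 and Psmb11 were above it in 0 arrays.

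The 5 groups held 3 samples each, on 1 array per sample, all from young adult thymus on the C57BL/6 background. PreDP cells (CD69-TCRβ-) were double-positive thymocytes before positive selection and PostDP cells (CD69+TCRβ+) were those after it, both from B2m-/- mice, which lack the MHC class I light chain and select only CD4 T cells. Tak1-deficient SM&M1 cells (Qa2-CD69+) came from Tak1f/f CD4Cre mice, where Cre driven by Cd4 sequences deletes the floxed kinase gene Tak1 (Map3k7) from the double-positive stage on. SM&M1 cells (Qa2-CD69+) and M2 cells (Qa2+CD69-) were CD4 single-positive thymocytes, M2 being the later, from Rag2-GFP BAC transgenic mice, whose reporter marks recently formed T cells. For these 2 groups the labels give GFP gates and a dump gate for NK1.1, CD25 and GL3, which they do not give for the Tak1-deficient cells. Stage and mouse line therefore changed together between PostDP and SM&M1 and between PreDP and M2, and Tak1 genotype and mouse line between both SM&M1 groups, so that these cannot be told apart. The labels call the samples of a group biological replicates but do not name separate animals, so p-values rest on a spread that may be technical.

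The 26S proteasome is the protease that degrades proteins tagged with ubiquitin. Its barrel, the 20S core, has outer rings of alpha subunits (Psma genes), which gate entry, and inner rings of beta subunits (Psmb genes), where Psmb5, Psmb6 and Psmb7 encode the catalytic sites with chymotrypsin-like, caspase-like and trypsin-like activity. The 19S particle caps the barrel: ATPases (Psmc genes) unfold the substrate, and Psmd genes encode scaffold and ubiquitin-binding subunits of its base and the subunits of its lid. In immune cells the immunoproteasome subunits Psmb8, Psmb9 and Psmb10 can take the place of Psmb5, Psmb6 and Psmb7. Proteasomes of the thymus are known for making the peptides shown to developing T cells, and within T cells the proteasome degrades the IκB proteins that hold NF-κB inactive, a step downstream of Tak1.

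RefSeq promoter windows (GRCm38.p6, 250 bases before to 50 after the annotated start) were at hand for 29 of the 36 genes, as 31 windows, and were searched on both strands for CCGGAAG, the core bound by ETS-family factors, for TGACNNNGC, the core of the element bound by NFE2-type factors such as Nfe2l1, and for the CCAAT box. CCGGAAG stood in 11 of the 31 windows (35.5%), against 8.86% of all 32851 windows and 17.3% of the 12313 windows of genes tested here. It lay in 10 of the 15 windows of 19S particle genes (66.7%), which are Psmc1, Psmc2 (in both of its windows), Psmc6, Psmd2, Psmd4, Psmd6, Psmd11, Psmd12 and Psmd13. It lay in 1 of the 12 windows of 20S core genes (8.33%), in Psma6. In 7 of the 15 windows of 19S genes (46.7%) a match began within 50 bases before the start, against 7.07% of the windows of genes tested. TGACNNNGC stood in 5 of the 31 windows (16.1%), those of Psmb5, Psmb6, Psmc6, Psmd9 and Psmd12, against 12.4% of all windows. CCAAT stood in 12 (38.7%), against 37.4% of all windows. No matches of different motifs overlapped within a window. The members' windows had a median GC content of 56.7%, against 52.7% for all windows, and its part in the CCGGAAG count was not tested. A match is a run of letters and not a measured binding site.

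The 120 bases that end at the annotated start are printed for Psma4 and Psmd13, which differed between M2 and PreDP, for 4 further 19S genes that hold CCGGAAG near the start, and for the catalytic subunit gene Psmb5. They are Psma4 at chr9:54950740-54950859 (plus strand), Psmd13 at chr7:140882275-140882394 (plus strand), Psmd6 at chr14:14120945-14121064 (minus strand), Psmd2 at chr16:20651533-20651652 (plus strand), Psmc1 at chr12:100110083-100110202 (plus strand), Psmd11 at chr11:80428496-80428615 (plus strand) and Psmb5 at chr14:54617995-54618114 (minus strand). Capitals mark CCGGAAG, or CTTCCGG where it lies on the other strand, and in Psmb5 TGACNNNGC.
Psma4: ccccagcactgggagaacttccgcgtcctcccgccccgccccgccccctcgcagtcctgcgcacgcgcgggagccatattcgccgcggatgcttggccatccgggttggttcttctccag
Psmd13: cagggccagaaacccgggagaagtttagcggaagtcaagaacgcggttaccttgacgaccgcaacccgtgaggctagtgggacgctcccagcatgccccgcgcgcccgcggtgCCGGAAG
Psmd6: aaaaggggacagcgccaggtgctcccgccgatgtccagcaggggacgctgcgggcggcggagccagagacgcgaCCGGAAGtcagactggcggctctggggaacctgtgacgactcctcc
Psmd2: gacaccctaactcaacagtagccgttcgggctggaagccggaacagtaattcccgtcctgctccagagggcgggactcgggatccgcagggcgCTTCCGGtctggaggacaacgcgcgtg
Psmc1: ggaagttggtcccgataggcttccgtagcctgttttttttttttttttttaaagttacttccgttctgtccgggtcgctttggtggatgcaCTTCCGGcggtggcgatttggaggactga
Psmd11: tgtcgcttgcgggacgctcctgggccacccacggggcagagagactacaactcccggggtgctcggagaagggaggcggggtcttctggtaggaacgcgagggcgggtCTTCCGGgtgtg
Psmb5: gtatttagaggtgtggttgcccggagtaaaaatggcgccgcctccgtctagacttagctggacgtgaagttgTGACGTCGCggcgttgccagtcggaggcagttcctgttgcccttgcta
The Psma4 stretch holds no match to any of the 3 motifs, while Psmd13 has CCGGAAG beginning 6 bases before the start.

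T lineage transcripts were high in all 15 arrays, with Cd3e between 12.67 and 13.50 and Cd4 between 11.02 and 12.78. The co-receptor gene Cd8a was between 5.22 and 10.22 in the single-positive arrays and between 12.45 and 14.09 in the double-positive ones. Replicate 1 of SM&M1 and of M2 stood apart from its group in some genes of other cells or stages. Rag1 was at 10.55, 6.93 and 7.68 in SM&M1 and at 10.41, 8.05 and 7.19 in M2. The innate-like marker Gzma was at 11.13, 7.25 and 6.65 in SM&M1 and at 11.23, 7.83 and 7.48 in M2. The macrophage marker Lyz2 was at 9.46, 6.71 and 6.14 in SM&M1 and at 9.53, 7.37 and 7.13 in M2. Map3k7 was at 4.76, 6.07 and 5.35 in Tak1-deficient SM&M1, against 10.40, 10.46 and 10.42 in SM&M1, and B2m was between 9.55 and 10.17 in the B2m-/- arrays and between 13.88 and 14.85 in the others. Replicate 2 of Tak1-deficient SM&M1 was an outlying array: its median signal was 167.81, against 80.52 to 121.46 in the other 14 arrays, and it correlated at 0.818 to 0.832 with the arrays of its group, against 0.964 or more within the other 4 groups. In it, 21 of the 34 members lay outside the range of the other 14 arrays, as did 54.8% of all genes tested. PreDP replicate 1, the array with the lowest median signal (80.52), was the highest of its group in 32 of the 34 members, against 36.4% of all genes tested. SM&M1 replicate 3 was the highest of its group in 23 of the 34 members, against 33.3% of all genes tested. The median deviation of the members from their own means was 0.24 in PreDP replicate 1 and 0.21 in SM&M1 replicate 3. The counts by role below were not redone without SM&M1 replicate 3. Values without the outlying array are given where they change a call on a member or on another gene of the pathway. Those without PreDP replicate 1 are given for members only.

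Across maturation the proteasome subunit genes stayed within a narrow band of levels. The mean levels of the 34 genes lay between 9.96 (Psmd9) and 13.25 (Psma6) with a median of 12.02, where the median over all genes tested was 9.34. From PreDP through PostDP and SM&M1 to M2, the highest and lowest of a gene's 4 group means were 0.09 to 0.70 apart, with a median of 0.34, or 1.27-fold. The median over all 11871 genes tested was 0.61, or 1.52-fold, and it was 0.51 over the 4521 genes at least as bright as the dimmest member. All 34 members had a range under 1, as did 74.1% of all genes tested and 80.9% of the 4521 genes at least as bright as the dimmest member. The spread between arrays of a group was also lower, with a median pooled SD of 0.18 for members and 0.22 for all genes tested. This spread and the intervals below were not compared among genes of like brightness. In the moderated F test across the 4 stages (limma, Benjamini-Hochberg over all genes tested), 31.4% of all genes tested passed. Of the members, 3 of 34 passed (8.82%): Psma4, Psmd3 and Psmd13. Without the outlying Tak1-deficient array, which enters only through the shared spread, 5 passed, with 47.6% of all genes. Without PreDP replicate 3, M2 replicate 1 or M2 replicate 2 the count was 1, Psmd13 each time. It was 0 with each array centred on its median, 1 with no filter, 6 with the replicate number as a block and 14 without PreDP replicate 1 and the outlying array. The share of all genes passing is given here only with all arrays and without the outlying one. The other counts can therefore not be set against it and are not read as a gain or loss of the members.

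**Figure D1:**
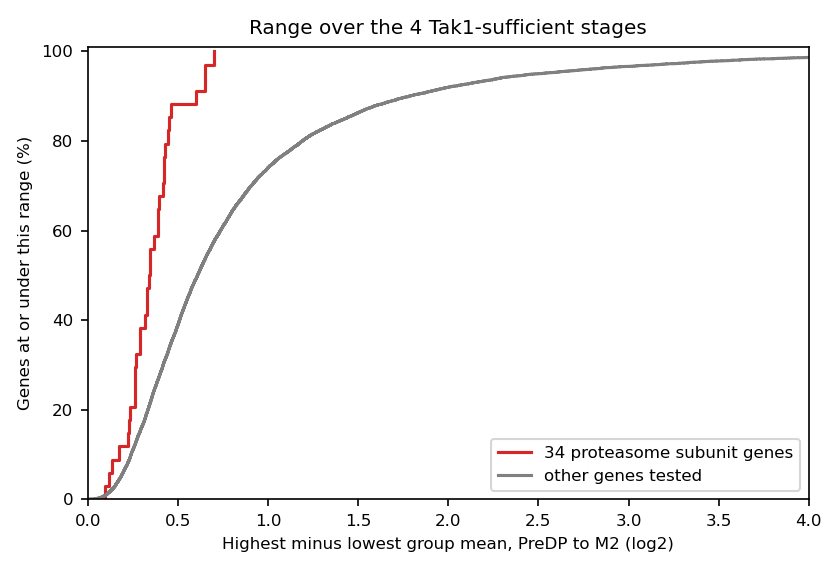
Share of genes (%) at or under each value of the difference between the highest and lowest group mean over PreDP, PostDP, SM&M1 and M2 (log2), for the 34 proteasome subunit genes (red) and the other genes tested (grey). The red line is complete at 0.70, while 74.1% of all genes tested lie under 1.

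The member with the smallest range was Psmc4, an ATPase of the 19S base. It was at 12.67, 12.42 and 12.60 in PreDP, at 12.46, 12.53 and 12.57 in PostDP, at 12.68, 12.43 and 12.72 in SM&M1 and at 12.77, 12.54 and 12.45 in M2. The 4 groups overlapped throughout, and their means were within 0.09 of each other. The largest range was that of the lid subunit gene Psmd13, at 0.70. Psmb1 and Psmd3 (0.65 each), Psma4 (0.60), Psmd14 (0.46) and Psmc1 (0.45) came next, while Psmd2 (0.11), Psmd7 (0.14) and Psmd5 (0.17) were next to Psmc4.

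**Figure D2:**
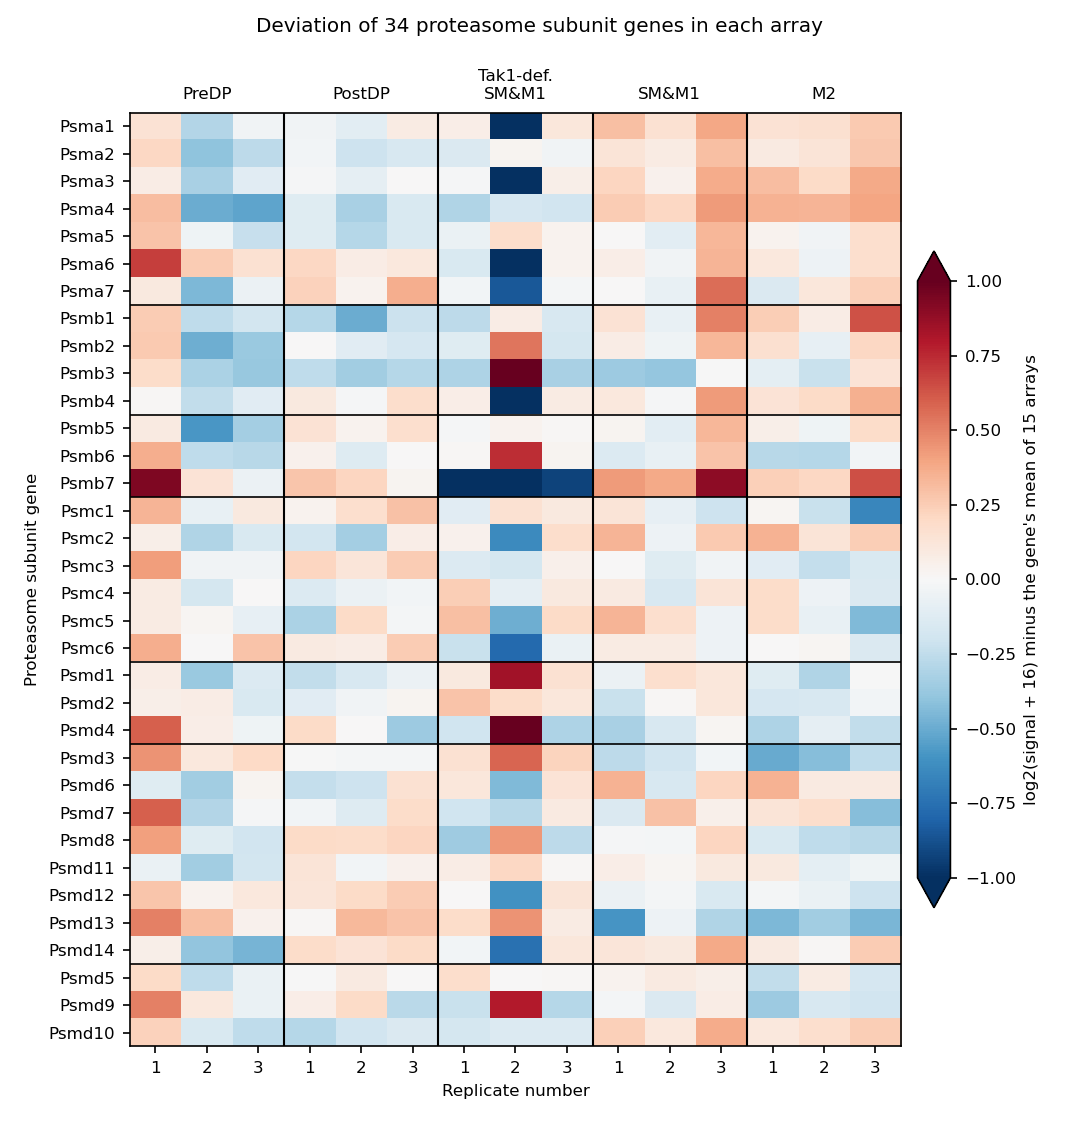
Deviation of each of the 34 proteasome subunit genes (rows, ordered from 20S alpha ring to 19S assembly chaperones, with lines between roles) from its own mean over 15 arrays, in log2(signal + 16), for each array (columns, 3 replicates in each of 5 groups). Most cells are pale; Psmb7 is dark blue in all 3 Tak1-deficient arrays, and the column of Tak1-deficient replicate 2 holds deep colours of both signs.

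PostDP against PreDP asks what changes at positive selection. None of the 34 members passed, where 14.9% of all genes tested did, 7.35% higher and 7.57% lower (limma, adjusted p under 0.05), and 1 had an unadjusted p under 0.05. The differences ran from -0.27 to 0.44 with a median of 0.01, the same as the median of all genes, and 32 of the 34 had a 95% interval wholly within 2-fold, against 58.7% of all genes tested. The arrays of both groups did not overlap for 3 members (8.82%), 2 higher and 1 lower, against 38.7% of all genes tested (19.1% higher and 19.6% lower). These were Psmd14, the lid's deubiquitinase (difference 0.44 ± 0.21 (SE), adjusted p = 0.225), the lid subunit gene Psmd11 (0.25 ± 0.13, adjusted p = 0.259) and the lid subunit gene Psmd3 (-0.26 ± 0.15, adjusted p = 0.326). Psmd14 passed without the outlying Tak1-deficient array (0.44, adjusted p = 0.0439), where 25.2% of all genes did. Without PreDP replicate 1, Psmb5 was the member that passed, with a difference of 0.57 (adjusted p = 0.0393, 11.7% of all genes). Transcripts of proliferation differed strongly across the same step: 13 of 19 tested were lower in PostDP, with a median of -1.45, and their summed signal was 24180 to 30780 in PostDP and 49830 to 102900 in PreDP. In these bulk samples, fewer cells of a type and less RNA per cell cannot be told apart.

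SM&M1 against PostDP follows the passage to CD4 single-positive cells. None of the 34 members passed, where 12% of all genes tested did (7.84% higher and 4.14% lower), and 4 had an unadjusted p under 0.05. Differences ran from -0.52 to 0.52 with a median of 0.05, against 0.03 for all genes, and 32 of 34 intervals lay within 2-fold, against 60.5%. Groups did not overlap for 13 members (38.2%), 9 higher and 4 lower, against 40.9% of all genes (23.1% higher and 17.9% lower). Among the 14 genes of the 20S core 11 differences were positive and 3 negative (median 0.23). In the same comparison 8 of 19 proliferation genes rose (median 1.31), with a summed signal of 46350 to 55650 in SM&M1 and 24180 to 30780 in PostDP, and their part in the members' differences was not tested. Psmb1, a beta subunit without a catalytic site, differed by 0.52 ± 0.21 (adjusted p = 0.13), and Psma4 by 0.49 ± 0.20 (adjusted p = 0.133). Psmd10, the assembly chaperone known as gankyrin, was at 10.25, 10.11 and 10.38 in SM&M1, against 9.73, 9.82 and 9.86 in PostDP. That is a difference of 0.44 ± 0.15, which did not pass (adjusted p = 0.0694). Without the outlying Tak1-deficient array, Psmd10 (adjusted p = 0.0292) and Psmd13 (difference -0.52, adjusted p = 0.032) passed, where 23% of all genes did. M2 against SM&M1, the last step, gave 0 members past the test in limma, where 2.33% of all genes tested passed (0.952% higher and 1.38% lower), and 0 with an unadjusted p under 0.05. The differences ran from -0.29 to 0.19 with a median of -0.08, against -0.01 for all genes. Of the 34 differences 27 were negative, and the share of negative differences over all genes was not counted. SM&M1 replicate 3 was the highest of its group in 23 of the 34 members, and its part in these signs was not tested. Groups did not overlap for 2 members (5.88%), both lower, against 23.6% of all genes (10.5% higher and 13.1% lower). They were the lid subunit gene Psmd8 (-0.29 ± 0.21, adjusted p = 0.84) and the assembly chaperone gene Psmd9 (-0.21 ± 0.26, adjusted p = 0.979). Without the outlying Tak1-deficient array the count of members past the test was still 0, where 5.66% of all genes passed.

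M2 against PreDP spans the whole series and uses the same arrays as the steps above. Of all genes tested, 27.1% passed, 14.6% higher and 12.5% lower. Of the 34 members 3 passed (8.82%): Psma4 rose, and Psmd3 and Psmd13 fell. Psma4, an alpha ring subunit gene, was at 12.95, 12.95 and 13.00 in M2, against 12.92, 12.11 and 12.08 in PreDP. All M2 arrays lay above all PreDP arrays, and PreDP replicate 1 stood far above its group, just below the M2 arrays. The difference was 0.60 ± 0.20 (95% interval 0.18 to 1.02, adjusted p = 0.0361), or 1.52-fold. In between, Psma4 was at 12.49, 12.28 and 12.45 in PostDP and at 12.85, 12.81 and 13.03 in SM&M1, so both single-positive groups of the Rag2-GFP line lay above all double-positive arrays except PreDP replicate 1. The call was lost without PreDP replicate 2 or 3 (adjusted p = 0.151 and 0.147) and without M2 replicate 1, 2 or 3 (0.081, 0.0807 and 0.0976). It was also lost with each array centred on its median (0.45, adjusted p = 0.326), with no filter (adjusted p = 0.0689) and in a fit of both groups alone (adjusted p = 0.0963, or 0.103 with the replicate number as a block).

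Psmd3 and Psmd13 encode structural subunits of the 19S lid. Psmd3 was at 10.79, 10.87 and 11.04 in M2, against 11.74, 11.40 and 11.49 in PreDP. The groups did not overlap, and the PostDP arrays (11.29, 11.28 and 11.28) and the SM&M1 arrays (11.03, 11.11 and 11.27) lay between their means. The difference was -0.65 ± 0.15 (95% interval -0.98 to -0.31, adjusted p = 0.00634), or 1.57-fold lower. Psmd13 was at 9.88, 9.98 and 9.87 in M2, against 10.83, 10.62 and 10.37 in PreDP. It was at 10.34, 10.65 and 10.61 in PostDP and at 9.74, 10.28 and 10.03 in SM&M1, so all single-positive arrays of the Rag2-GFP line lay below all double-positive ones. The difference was -0.70 ± 0.18 (95% interval -1.09 to -0.31, adjusted p = 0.00968), or 1.62-fold lower. Neither call was lost when any 1 array of these groups was left out. Without the outlying Tak1-deficient array both passed too, as did Psma4 and Psma3 (0.41, adjusted p = 0.02), where 39.6% of all genes did. The other probe sets of Psmd13 gave -0.50, 0.97 and -0.46. Those at 0.97 and -0.46 are both dim, and only the one at 0.97 had the other sign. With the mean of all Psmd13 probe sets the difference was -0.17 (adjusted p = 0.457), where Psmd3 has 1 probe set.

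**Figure D3:**
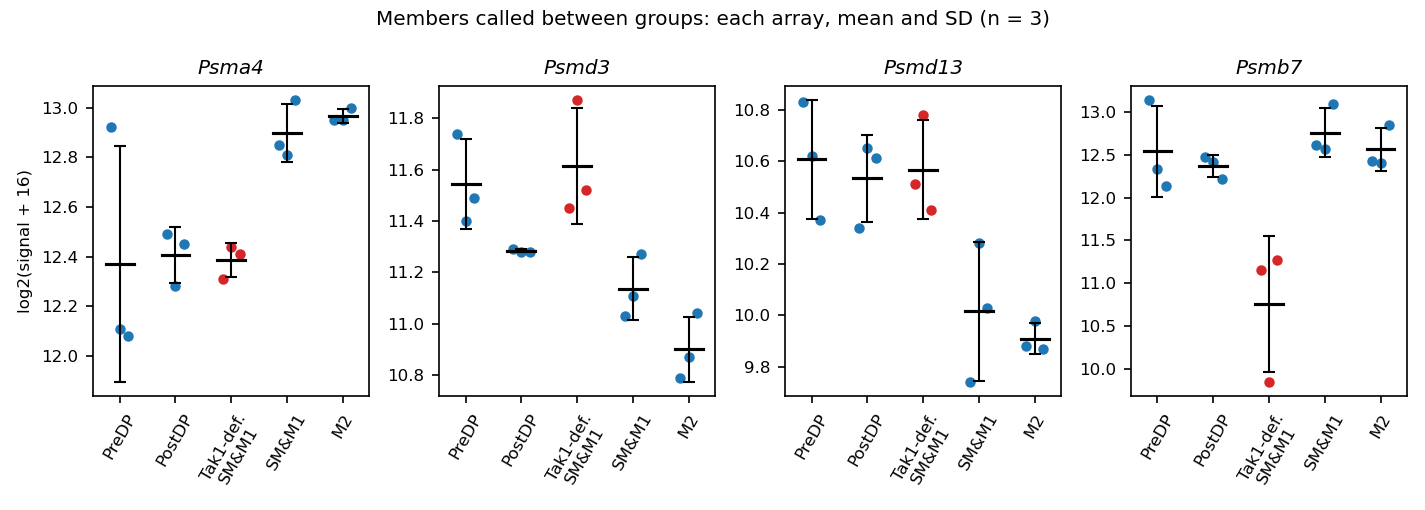
Level of Psma4, Psmd3, Psmd13 and Psmb7 in each array, in log2(signal + 16), by group; points are arrays (red for Tak1-deficient SM&M1), lines the group mean and bars the SD (n = 3). Psma4 is higher and Psmd3 and Psmd13 are lower in M2 than in PreDP, and Psmb7 has all 3 Tak1-deficient arrays between 9.84 and 11.27.

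By role, the 14 genes of the 20S core had 12 positive and 2 negative differences in M2 against PreDP (median 0.27), and the 17 genes of the 19S particle 6 positive and 11 negative (median -0.14), beside a median of 0.05 over all genes. With each array centred on its median, which moved the median of all genes to -0.10, the core had 9 positive and 5 negative (median 0.12) and the 19S particle 4 positive and 13 negative (median -0.29). The median of the 19S particle was -0.09 with quantile normalization and -0.08 without PreDP replicate 1, where 7 were positive and 10 negative, and that of the core was then 0.24 and 0.38. In the alpha ring, 6 of 7 differences were positive, from Psma5 at 0.05 to Psma4, and Psma6 was at -0.29. The structural beta subunits Psmb1, Psmb2, Psmb3 and Psmb4 were all positive, from 0.11 to 0.38. Of the ATPases, 4 of 6 were negative, with Psmc1 lowest (-0.40 ± 0.19, adjusted p = 0.138) and Psmc2 highest (0.37 ± 0.21, adjusted p = 0.231). The base subunits Psmd1 and Psmd2 were at 0.00 and -0.11, and the ubiquitin receptor gene Psmd4 was at -0.42. Of the assembly chaperones, Psmd5 was at -0.07, Psmd9 at -0.42 and Psmd10 at 0.23. In the lid, beside Psmd3 and Psmd13, the deubiquitinase gene Psmd14 was at 0.38, Psmd6 at 0.33 and Psmd11 at 0.19, and Psmd7 was at -0.14, Psmd12 at -0.24 and Psmd8 at -0.26. All but Psma4, Psmd3 and Psmd13 did not pass. Intervals within 2-fold were found for 29 of the 34 members, against 49% of all genes tested.

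In M2 against PreDP, 11 members (32.4%) had groups that did not overlap, 5 higher and 6 lower, against 47.7% of all genes tested (24.6% higher and 23.1% lower). Without PreDP replicate 1, 5 members passed (24.8% of all genes), among them Psma2 (0.50, adjusted p = 0.0235) and Psmb5 (0.52, adjusted p = 0.0333). Without both PreDP replicate 1 and the outlying Tak1-deficient array, a setting chosen after seeing the data, 13 members passed, where 39.8% of all genes did. Of these 11 were higher, with Psma1, Psma2, Psma3, Psma4, Psmb1, Psmb2, Psmb4 and Psmb5 from the 20S core, Psmc2 and Psmd14 from the 19S particle and the chaperone Psmd10, and the 2 lower were again Psmd3 and Psmd13. Marker transcripts of other cells differed as well. The summed signal of 10 macrophage markers was 696.8 to 1805 in M2 and 403.1 to 621.2 in PreDP, that of 5 B cell markers 340.7 to 879.2 in M2 and 1626 to 2025 in PreDP. None of 4 macrophage markers tested passed, and of 5 B cell markers Cd79a rose and Cd79b fell. Most of the B cell sum in PreDP came from Cd79b, at 10.83, 10.38 and 10.44 in PreDP and at 7.83, 6.54 and 6.55 in M2. Cd79a was at 5.06, 5.74 and 6.49 in PreDP and at 8.09, 6.69 and 7.21 in M2, so the sum does not stand for B cells as a whole. Of 7 natural killer and innate-like markers Klrd1 and Nkg7 rose (median of the list 0.80), with a summed signal of all 8 measured of 770.8 to 4629 in M2 and 2958 to 4547 in PreDP. Of 8 cortical epithelial markers Prss16, Ly75 and Ccl25 rose and Cldn4 fell, with a summed signal of all 10 measured of 2445 to 2850 in M2 and 1846 to 2748 in PreDP. Of 7 dendritic cell markers Cd74 rose and Cst3 fell, with a summed signal of all 8 measured of 3100 to 6058 in M2 and 3386 to 4899 in PreDP. These sums too lean on single genes. The brightest in PreDP were Gzma among the innate-like markers (mean 11.76), Cldn4 among the epithelial ones (9.94) and Cst3 among the dendritic ones (11.65). Of 19 proliferation genes Mcm2, Mcm6 and Mcm7 fell, with a summed signal of 39670 to 62100 in M2 and 49830 to 102900 in PreDP. Their part in the members' differences was not tested.

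**Figure D4:**
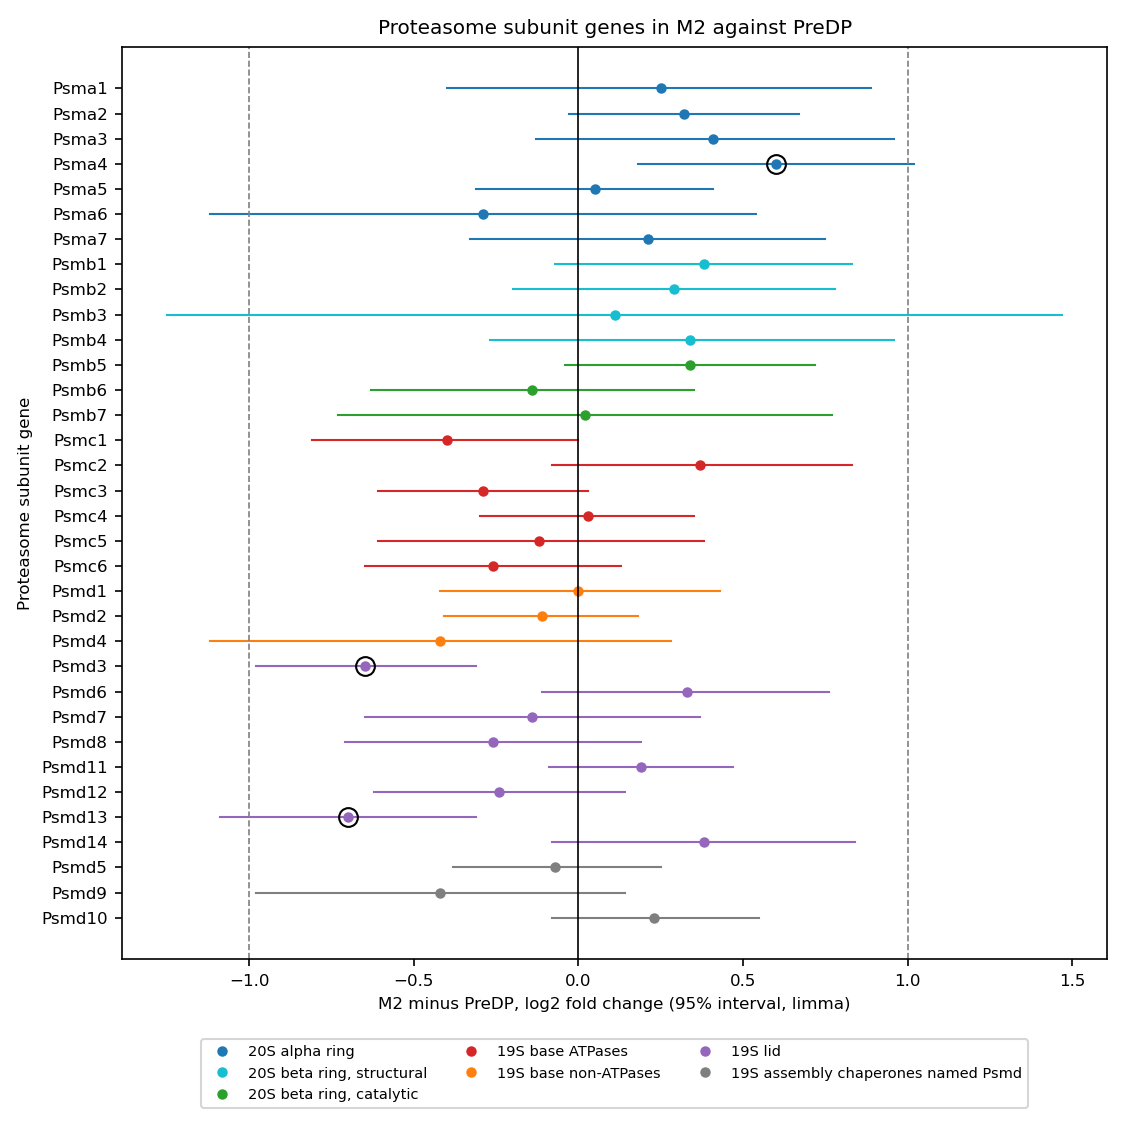
Difference between M2 and PreDP for each of the 34 proteasome subunit genes, as log2 fold change (horizontal axis) with its 95% interval from limma over all 15 arrays, coloured by role; black rings mark the 3 genes that passed and dashed lines 2-fold in either direction. Most points of the 20S core lie right of 0 and most of the 19S particle left of it, and the intervals of 31 genes include 0.

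The catalytic subunit genes did not pass in any comparison between Tak1-sufficient groups. Psmb5, the chymotrypsin-like subunit, was at 12.05, 11.38 and 11.62 in PreDP, at 12.10, 11.99 and 12.13 in PostDP, at 11.99, 11.85 and 12.29 in SM&M1 and at 12.01, 11.92 and 12.14 in M2. Only 2 PreDP arrays lay below the others. Psmb6, the caspase-like subunit, was at 12.46, 11.85 and 11.82 in PreDP, at 12.14, 11.97 and 12.10 in PostDP, at 11.96, 12.03 and 12.38 in SM&M1 and at 11.83, 11.81 and 12.07 in M2, with all groups overlapping. Psmb7, the trypsin-like subunit, was at 13.14, 12.34 and 12.14 in PreDP, at 12.47, 12.42 and 12.22 in PostDP, at 12.62, 12.57 and 13.09 in SM&M1 and at 12.43, 12.41 and 12.85 in M2. M2 differed from PreDP by 0.34 ± 0.18 for Psmb5 (adjusted p = 0.187), by -0.14 ± 0.23 for Psmb6 (adjusted p = 0.703) and by 0.02 ± 0.35 for Psmb7 (adjusted p = 0.97).

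Tak1-deficient SM&M1 and SM&M1 differed in Tak1 genotype, in mouse line and in the gates that the labels give, and these cannot be told apart. Psmb7 was the member that passed: it was at 11.15, 9.84 and 11.27 in Tak1-deficient SM&M1, against 12.62, 12.57 and 13.09 in SM&M1. Its 3 Tak1-deficient arrays were below every one of the other 12, of which the lowest was at 12.14. The difference was -2.01 ± 0.35 (95% interval -2.76 to -1.26, adjusted p = 0.0131), or 4.02-fold lower, and ordered from the most negative difference Psmb7 took place 26 of the 11871 genes tested, or place 78 without Tak1-deficient replicate 2. It was 1 of 34 members (2.94%), where 1.69% of all genes tested passed, 0.43% higher and 1.26% lower. Without Tak1-deficient replicate 2 the difference was -1.55 ± 0.26 (adjusted p = 0.00867, 2.92% of all genes). The call was lost without SM&M1 replicate 3 (-1.84, adjusted p = 0.0688) and in a fit of the 2 groups alone (-2.01, adjusted p = 0.297), where the spread comes from these 6 arrays. Psmb7 is read from 1 probe set, and no other probe set of the array names it. Its probe sequences were not at hand and could not be checked between the mouse lines. Of the 5 genes tested on either side in RefSeq's gene order, from Zbtb26 to Golga1, none passed, and their differences ran from -0.68 to 0.55.

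The other catalytic subunit genes did not pass. Psmb5 was at 11.95, 11.99 and 11.97 in Tak1-deficient SM&M1, against 11.99, 11.85 and 12.29 in SM&M1 (difference -0.07 ± 0.18, adjusted p = 0.837). Psmb6 was at 12.11, 12.83 and 12.12 in Tak1-deficient SM&M1, against 11.96, 12.03 and 12.38 in SM&M1 (difference 0.23 ± 0.23, adjusted p = 0.591). Both sets of arrays overlapped, and the highest Psmb6 value was that of the outlying array. Psmb10, the immunoproteasome subunit that takes the place of Psmb7, was at 11.43, 11.46 and 11.39 in Tak1-deficient SM&M1, against 12.11, 12.21 and 12.33 in SM&M1, and fell by 0.79 on the log2 scale (SE 0.17, adjusted p = 0.0357), and without replicate 2 by 0.81 (SE 0.18, adjusted p = 0.0331). Psmb9 was at 11.46, 11.35 and 11.22 in Tak1-deficient SM&M1, against 12.02, 12.23 and 12.31 in SM&M1 (difference -0.84 ± 0.27, adjusted p = 0.143), and Psmb8 differed by -0.36 ± 0.24 (adjusted p = 0.439).

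Of the other members, 33 did not pass in Tak1-deficient SM&M1, with differences from -0.81 (Psma6) to 1.03 (Psmb3). The 20S core held 12 negative and 2 positive differences (median -0.38) and the 19S particle 9 negative and 8 positive (median -0.03), beside a median of 0.05 over all genes. With quantile normalization the core had 9 negative and 5 positive. Without Tak1-deficient replicate 2 all 14 core differences were negative, with a median of -0.19, and the 19S particle had 9 positive and 8 negative. The outlying array held the extremes: Psmb3 was at 12.25, 15.52 and 12.23 in Tak1-deficient SM&M1, against 12.18, 12.17 and 12.55 in SM&M1, and Psma6 was at 13.10, 11.30 and 13.29 in Tak1-deficient SM&M1, against 13.32, 13.21 and 13.59 in SM&M1. The other 2 Tak1-deficient arrays lay within the SM&M1 range for Psmb3, and for Psma6 1 of them did. Groups did not overlap for 9 members (26.5%), 6 lower and 3 higher, against 20.3% of all genes tested (9.01% lower and 11.3% higher). Psma4 was at 12.31, 12.44 and 12.41 in Tak1-deficient SM&M1, against 12.85, 12.81 and 13.03 in SM&M1 (difference -0.51 ± 0.20, adjusted p = 0.203), in the range of the double-positive groups apart from PreDP replicate 1. Psmd13 was at 10.51, 10.78 and 10.41 in Tak1-deficient SM&M1, against 9.74, 10.28 and 10.03 in SM&M1 (difference 0.55 ± 0.18, adjusted p = 0.143). Psmd3 was at 11.45, 11.87 and 11.52 in Tak1-deficient SM&M1, against 11.03, 11.11 and 11.27 in SM&M1 (difference 0.48 ± 0.15, adjusted p = 0.142). Intervals within 2-fold were found for 27 of the 34 members, against 62% of all genes tested.

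**Figure D5:**
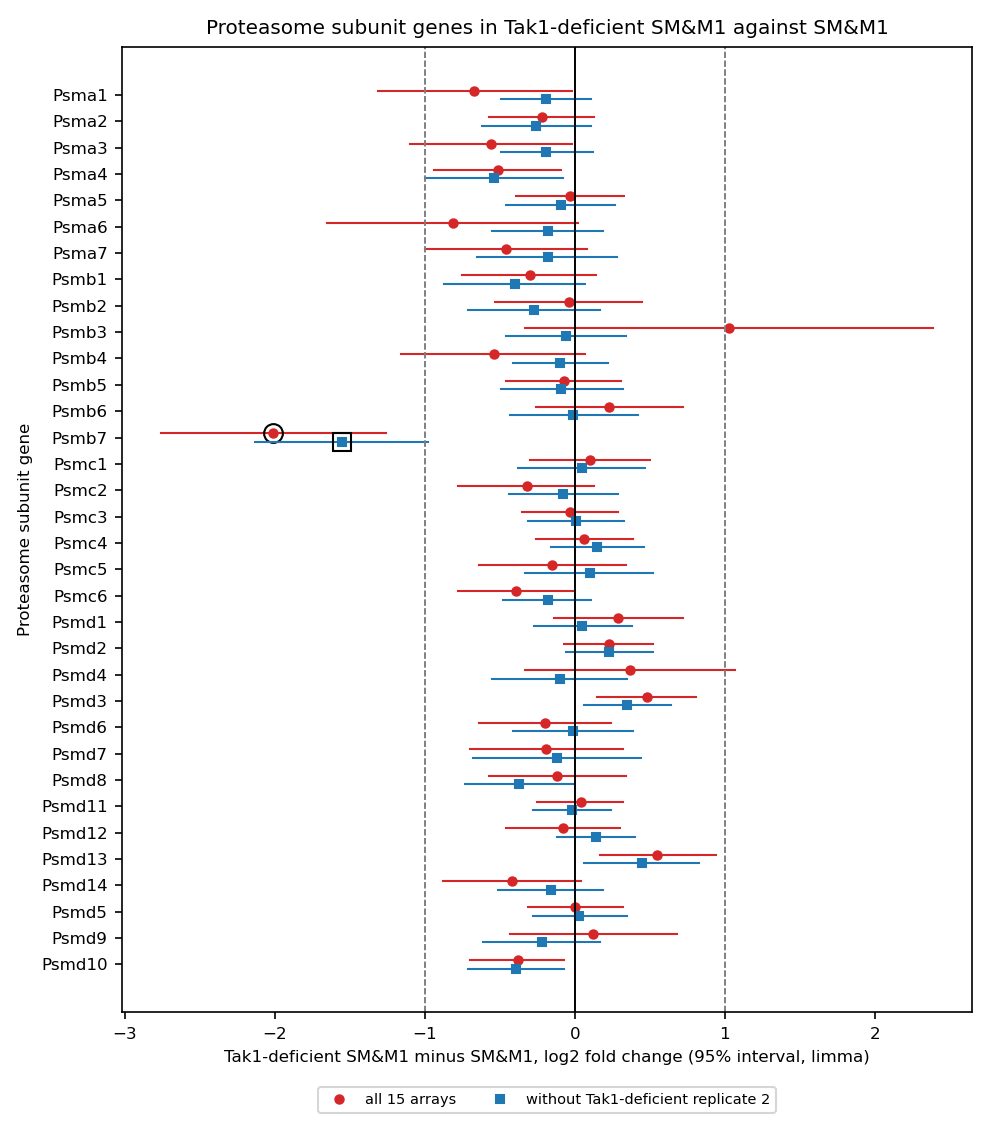
Difference between Tak1-deficient SM&M1 and SM&M1 for each of the 34 proteasome subunit genes, as log2 fold change with its 95% interval from limma, over all 15 arrays (red circles) and without Tak1-deficient replicate 2 (blue squares); black outlines mark genes that passed and dashed lines 2-fold. Psmb7 stands at -2.01 and -1.55, and Psmb3 moves from 1.03 to near 0 without the outlying array.

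Markers of other cells were measured in the same arrays. Of 10 macrophage markers measured, Cd68, Csf1r, Adgre1 and Lyz2 were above the filter, and none of these 4 passed. The summed signal of the 10 was 769.4 to 3215 in Tak1-deficient SM&M1, against 584.4 to 1801 in SM&M1. That of 8 natural killer and innate-like T cell markers was 1091 to 4580 in Tak1-deficient SM&M1, against 501.2 to 4345 in SM&M1, with 0 of 7 past the test. That of 19 proliferation genes was 32280 to 64600 in Tak1-deficient SM&M1, against 46350 to 55650 in SM&M1, with 0 of 19 past it. Of 5 B cell, 7 dendritic cell and 8 cortical epithelial markers tested, 0 passed. Cd8a was between 9.28 and 10.22 in Tak1-deficient SM&M1 and between 7.65 and 8.03 in SM&M1. Cd4 was at 11.38, 11.50 and 11.02 in Tak1-deficient SM&M1, against 12.02, 12.14 and 12.50 in SM&M1. Rag1 was at 9.83, 8.85 and 11.20 in Tak1-deficient SM&M1, against 10.55, 6.93 and 7.68 in SM&M1, and overlapped. The part of these in the members' values was not tested.

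The 2 members that were not tested belong to specialised proteasomes. Psmb11 encodes the beta subunit of the thymoproteasome, made by cortical thymic epithelial cells. It was at 5.88, 5.02 and 5.15 in PreDP, at 5.46, 4.97 and 4.82 in PostDP, at 4.66, 7.46 and 4.62 in Tak1-deficient SM&M1, at 5.94, 4.59 and 5.79 in SM&M1 and at 4.79, 4.90 and 6.49 in M2. Its highest value was in the outlying array, and it was below the array median in every array. The epithelial factor gene Foxn1 was between 5.10 and 7.40, and the summed signal of 10 cortical epithelial markers was between 1268 and 2850 over all 15 arrays. Psma8 encodes an alpha subunit found in testis. It was at 5.34, 6.27 and 5.12 in PreDP, at 5.47, 5.26 and 6.35 in PostDP, at 5.90, 5.53 and 4.68 in Tak1-deficient SM&M1, at 6.70, 5.98 and 5.92 in SM&M1 and at 4.87, 4.72 and 4.43 in M2, and also lay below the median of every array.

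Other genes of the pathway are given by the lists chosen with the members. Of the immunoproteasome subunits, 2 of 3 rose in SM&M1 against PostDP, Psmb9 by 1.67 ± 0.27 (adjusted p = 0.00138) and Psmb10 by 0.80 ± 0.17 (adjusted p = 0.00749). The same 2 rose in M2 against PreDP, Psmb9 4-fold (95% interval of the log2 difference 1.41 to 2.59, adjusted p = 8.5e-05) and Psmb10 2.96-fold (1.20 to 1.93, adjusted p = 1.18e-05), while Psmb8 differed by 0.60 ± 0.24 (adjusted p = 0.0831). Psmb8 passed without the outlying Tak1-deficient array (0.60 ± 0.22, adjusted p = 0.0449). Psmb9 was at 12.58, 12.74 and 12.86 in M2, against 11.50, 10.51 and 10.16 in PreDP, and Psmb10 at 12.44, 12.52 and 12.82 in M2, against 11.35, 10.90 and 10.83 in PreDP, with no overlap for either. Their constitutive counterparts Psmb6 and Psmb7 differed by -0.14 and 0.02 in the same comparison. The difference between both kinds of subunit was not tested. The mouse line changes in both comparisons, and the PreDP and PostDP cells lack B2m.

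Of 5 measured assembly factors of the 20S core, 2 rose in SM&M1 against PostDP and 3 in M2 against PreDP. Psmg1 differed by 1.10 ± 0.20 in the first (adjusted p = 0.00284) and by 0.62 ± 0.20 in the second (adjusted p = 0.0339), and Psmg4 by 0.81 ± 0.23 (adjusted p = 0.0373) and 1.15 ± 0.23 (adjusted p = 0.00208). Psmg2 rose by 0.95 ± 0.29 in M2 against PreDP (adjusted p = 0.0254). Without the outlying array Psmg2 also rose in SM&M1 against PostDP (0.86, adjusted p = 0.00225), and the maturation factor gene Pomp in PostDP against PreDP (0.63, adjusted p = 0.028). Psmg1, Psmg2 and Psmg4 encode chaperones that help the alpha ring form. Of 4 measured activators and inhibitors, Psme1, a subunit of the PA28 cap that binds the ends of the core, rose in both comparisons, by 0.65 ± 0.17 in SM&M1 against PostDP (adjusted p = 0.0215) and by 1.38 ± 0.17 in M2 against PreDP (adjusted p = 3.04e-05). Psme4, which encodes the activator PA200, fell in M2 against PreDP (-0.73 ± 0.14, adjusted p = 0.00171) and, without the outlying array, in SM&M1 against PostDP (-0.30, adjusted p = 0.0449). In Tak1-deficient SM&M1 2 of the 4 fell, Psme1 by 0.73 on the log2 scale (SE 0.17, adjusted p = 0.0458) and Psme3, the nuclear PA28 subunit, by 1.36 (SE 0.21, adjusted p = 0.00492). Without Tak1-deficient replicate 2, Psme3 still passed (-1.09 ± 0.15, adjusted p = 0.0025) and Psme1 did not (-0.68 ± 0.17, adjusted p = 0.055). Psme3 was at 9.30, 8.39 and 9.06 in Tak1-deficient SM&M1, against 10.23, 10.29 and 10.28 in SM&M1, with no overlap.

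None of 9 measured ubiquitin receptors and deubiquitinases that bind the proteasome passed in any of the 5 comparisons with all 15 arrays. Their largest difference was that of the deubiquitinase gene Uchl5 in Tak1-deficient SM&M1 against SM&M1 (-0.80 ± 0.39, adjusted p = 0.306), which was -0.25 ± 0.28 (adjusted p = 0.689) without Tak1-deficient replicate 2. Without that array some of the 9 passed between Tak1-sufficient groups. The shuttle factor gene Ubqln4 was then higher in PostDP against PreDP (0.35, adjusted p = 0.0371) and Uchl5 in SM&M1 against PostDP (0.79, adjusted p = 0.0381). In M2 against PreDP Usp14 (0.46, adjusted p = 0.0402) and Ubqln4 (0.38, adjusted p = 0.0151) were then higher and Ubqln1 lower (-0.45, adjusted p = 0.0304). Uba6, which encodes a ubiquitin-activating enzyme, passed in no comparison with all arrays, and without the outlying one it was higher in PostDP against PreDP (0.60, adjusted p = 0.0447). Of 5 genes of the p97 segregase, which extracts ubiquitin-tagged proteins, Vcp fell in M2 against PreDP (-0.52 ± 0.15, adjusted p = 0.016), and none passed elsewhere with all arrays. Without the outlying array Vcp also fell in SM&M1 against PostDP (-0.38, adjusted p = 0.0339), and its cofactor gene Faf2 fell in M2 against PreDP (-0.57, adjusted p = 0.0245). Of 9 transcription factors and processing enzymes linked to proteasome genes, Mafg rose in PostDP against PreDP (0.55 ± 0.17, adjusted p = 0.0402), Maff fell in SM&M1 against PostDP (-1.99 ± 0.41, adjusted p = 0.00651) and Maff and Nfya fell in M2 against PreDP (-2.27 ± 0.41, adjusted p = 0.000893, and -0.44 ± 0.13, adjusted p = 0.026). Nfe2l1, the factor known to raise proteasome genes when the proteasome is inhibited, did not pass in any of the 5 comparisons, with or without the outlying array. In Tak1-deficient SM&M1 against SM&M1 it differed by 0.42 ± 0.23 (adjusted p = 0.357), and by 0.10 ± 0.15 (adjusted p = 0.791) without replicate 2. Its relative Nfe2l2 was higher in M2 against PreDP without that array (0.37, adjusted p = 0.0202).

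Other probe sets were compared for the members that have them. In 17 members, 30 further probe sets were above the filter, and 22 of the 30 had the sign of the probe set used for M2 minus PreDP. Of all 36 members, 17 have 1 probe set each on the array, and for Psmc1 and Psmd2 the further probe set was below the filter. The probe sets used for Psma6, Psmb4 and Psmc2 are of a kind whose probes can match other transcripts, and that for Psmd11 is shared by transcripts that are alike, so their values may hold signal from other genes. Psmd13 shows how far probe sets of 1 gene can differ: for M2 minus PreDP they gave -0.70, -0.50, 0.97 and -0.46. The last 2 probe sets are dim, with group means between 6.08 and 7.79.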

How the data were processed

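RNA of each sample was amplified in a single round, labelled with biotin and hybridised to 1 Affymetrix-type mouse array, per the labels' protocols. The authors deposited linear signal intensity values for 45101 probe sets; the algorithm is not given in the sources used here. The deposited intensity values have a mean of 500 in each array once the highest and lowest 2% are removed, so the arrays were already on a common scale and were not normalized again. Values were analysed as log2(intensity + 16), so that fold changes of dim genes are understated. The platform annotation gave the gene names, with symbols updated by Entrez number to RefSeq (34741 of 34945 probe sets with 1 gene; 932 with several, 9160 unnamed here and 64 controls were left out). Of 168 listed genes, 17 lacked a probe set naming them alone.

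A gene was tested if it exceeded the array median (50th percentile) in at least 3 arrays, with limma 3.58.1 in R 4.3.3: 1 mean per group, all 15 arrays, 10 residual degrees of freedom, Benjamini-Hochberg adjustment over 11871 genes, called under 0.05. SDs are between the 3 arrays, and SEs and 95% intervals are those of the moderated fit. The scripts were tested on simulated data. Members and lists were chosen with earlier results of these data known. Per-array values are given for the catalytic subunits, called members, the members of largest and smallest range and those not tested; other members that the text names were chosen after their values were seen, for groups that did not overlap or extreme values. Of each other list, up to 3 called genes of largest change are named.

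The labels give replicate numbers without their meaning. Deviations of same-numbered samples correlated at 0.339, 0.275 and 0.411 between PostDP and PreDP and at 0.553, 0.436 and 0.326 between M2 and SM&M1, so the numbers were taken to pair samples there. In the other comparisons at least 1 correlation was under 0.1. Alternatives were other scalings, filters, probe set rules and moderation, a pseudocount of 1, leaving out arrays, fitting only the groups compared, and a replicate block. The figures were drawn with matplotlib 3.10.9 in Python 3.11.15.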

Additional observations from a re-analysis of the deposited data

How the results depend on the processing

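Psma4, Psmd3 and Psmd13 in M2 against PreDP and Psmb7 in the Tak1 comparison kept their direction under every alternative that was run. The median difference of the members ranged over the alternatives from -0.14 to 0.12 for PostDP against PreDP, from -0.02 to 0.10 for SM&M1 against PostDP and from -0.13 to 0.15 for M2 against PreDP, so its sign was not stable there, and from -0.25 to -0.07 in the Tak1 comparison. In all, 86 alternative counts of called members stayed within 1.5 times the count with all arrays, while 19 did not. For PostDP against PreDP the count of 0 became 1 with the outlying Tak1-deficient array left out, where 25.2% of all genes passed. It became 3 with PreDP replicate 1 left out as well, a setting added after seeing the data, where 23% of all genes passed. Leaving out single arrays of the groups gave 0 to 1. For SM&M1 against PostDP the count of 0 became 2 without the outlying array, where 23% of all genes passed. It was 1 with a filter at the 75th percentile and 2 when only these groups were fitted (Psma4 and Psmd10). It stayed at 0 when single arrays were left out, as it did for M2 against SM&M1. For M2 against PreDP the count of 3 became 13 without PreDP replicate 1 and the outlying array, where 39.8% of all genes passed. It was 2 to 5 when single arrays were left out. In the Tak1 comparison the count of 1 became 0 when only its 2 groups were fitted and 0 in that fit with the replicate block (Psmb7, adjusted p = 0.646). It was 0 to 1 when single arrays were left out, and 1 in that fit without the block and without the outlying array, added after seeing the data. For the F test the count of 3 became 0 with each array centred on its median, 1 with no filter, 5 without the outlying array, 6 with the replicate block over the 4 groups, 14 without PreDP replicate 1 and the outlying array, and 1 to 4 when single arrays were left out. The share of all genes passing it is given here only with all arrays (31.4%) and without the outlying one (47.6%). Counts above that stand without the share of all genes in that setting are not read as a gain or loss of the members. With no filter more genes are tested, and with fewer arrays there are fewer degrees of freedom; the cause of the other changes was not tested. The replicate block changed no call in PostDP against PreDP or M2 against SM&M1, where the numbers pair the samples; in M2 against PreDP it ended the call of Psma4 (adjusted p = 0.103). For single genes 300 alternative values kept their side of the threshold, 13 lost it and 23 gained it. Dim genes are limited by signal over background, and Psma8 and Psmb11 gave no test for that reason.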
